A study of Homo sapiens with 6 samples.

Results

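Lysyl oxidases are secreted, copper-dependent enzymes that tie collagen and elastin molecules together. The family has 5 members by gene symbol, namely LOX, LOXL1, LOXL2, LOXL3 and LOXL4, and rows were taken from the deposited table by these symbols alone. That gave 4 genes of the 16569 in the table, and all 4 were among the 11872 genes tested; LOXL2 was not analysed here. The cells were LX-2, an immortalised human line of hepatic stellate cells, with wild type genotype per the labels, and the labels name no other cell in the cultures. All cells were grown with 2% fetal bovine serum and then kept 18 h without it. For the next 24 h they received phosphate-buffered saline (PBS; 3 libraries) or IGFBP-7 protein at 100 ng/mL (3 libraries). IGFBP-7 is a secreted protein related to the insulin-like growth factor binding proteins.

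A lysyl oxidase removes the end amine of lysine and hydroxylysine residues in collagen and elastin and leaves an aldehyde. Neighbouring aldehydes then condense, without further enzyme, into covalent cross-links that stiffen fibres and slow their breakdown. LOX and LOXL1 are made as proenzymes with an N-terminal propeptide, which for LOX is removed by the protease BMP1. LOXL3 and LOXL4 instead carry scavenger receptor cysteine-rich domains ahead of the same catalytic part. In scarring liver, stellate cells turned myofibroblast are the main makers of fibrillar collagen and a known source of lysyl oxidases.

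LOX was the member that rose most after IGFBP-7 among the 4 measured, 3.77-fold. LOXL3 rose slightly, a call that depended on how the libraries were scaled. LOXL1 did not pass the test but passed as lower in 8 of 16 settings of the analysis, and LOXL4 passed in 0. LOX also differed from the other measured members in the sequence before its outermost start, and a link to its rise was not tested. LOX has 3 RefSeq starts and LOXL3 has 2, and only the window of the outermost was searched. The windows of LOX and LOXL1 are shown as the 250 bases before the outermost RefSeq start on GRCh38.p14. These genes differed most in response. Their mean counts in PBS were nearly equal, but per kilobase of exon LOXL1 was at 1058 and LOX at 479. Capitals mark ACGTG, the core bound by hypoxia-inducible factors, and CAGAC, a core bound by SMAD proteins, each on either strand (CACGT and GTCTG on the other strand).
LOX, chr5:122078260-122078509, minus strand: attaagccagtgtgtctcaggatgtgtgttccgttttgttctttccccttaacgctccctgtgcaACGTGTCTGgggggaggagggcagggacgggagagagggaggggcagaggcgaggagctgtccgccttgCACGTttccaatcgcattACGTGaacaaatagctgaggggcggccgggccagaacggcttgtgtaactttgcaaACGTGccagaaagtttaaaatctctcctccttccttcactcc
LOXL1, chr15:73926212-73926461, plus strand: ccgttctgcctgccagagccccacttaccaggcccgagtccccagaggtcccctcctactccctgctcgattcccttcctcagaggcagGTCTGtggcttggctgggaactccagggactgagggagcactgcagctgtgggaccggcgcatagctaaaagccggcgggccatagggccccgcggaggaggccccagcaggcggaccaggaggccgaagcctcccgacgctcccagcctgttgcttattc

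The LOX window held ACGTG at 4 places, starting 185, 116, 98 and 42 bases before the start, and the first of these shares a base with a CAGAC match on the other strand. The LOXL1, LOXL3 and LOXL4 windows held 0. Among 27305 RefSeq windows of this length, 1 per gene, 18.6% held ACGTG at least once and 0.710% held 4 or more matches, where a CACGTG counts as 2. CAGAC occurred once in LOX and once in LOXL1, and 37.9% of all windows held it. The related core GCGTG (31.9% of all windows), the AP-1 element TGANTCA (6.57%) and the CArG box of serum response factor (1.15%) were at 0 in the 4 windows. G and C made up 55.2% of the LOX window, 66.8% of that of LOXL1, 64.4% of that of LOXL3 and 86.4% of that of LOXL4. These are matches of letters only, and no binding was measured.

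Levels below are the authors' normalized counts, which are read counts divided by 1 factor per library, and are given as mean ± SD over n = 3 libraries. Changes are IGFBP-7 minus PBS on the scale log2(normalized count + 1), with the standard error (SE) of limma-trend and an adjusted p over all tested genes. A gene passes at an adjusted p under 0.05. Depth, as reads recovered from the values, was 40599380 to 43537923 per PBS library and 45242993 to 55479940 per IGFBP-7 library. Correlations between libraries over the tested genes were 0.987 to 0.989 within groups and 0.952 to 0.954 between them. Of the tested genes, 60.6% passed in either direction, 31.3% higher and 29.2% lower. Scaling each library to its total instead moved the median change of all tested genes by -0.14 and gave 2435 genes higher and 4176 lower, against 3721 and 3471.

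The labelled cell type was checked against marker lists. Of 12 stellate markers 9 were in the table, and 8 had a mean of at least 10; PDGFRB was at 3055 ± 79 in PBS, and DES was at 0 in PBS and in 2 of the IGFBP-7 libraries. The summed stellate markers were at 93796 to 96602 in PBS and 259426 to 285966 with IGFBP-7, and COL1A1 makes up most of that sum. Of the 8 tested, 7 were higher and 1 lower, beside 31.3% and 29.2% of all tested genes. The lower one was THY1, which went from 6908 ± 234 to 5714 ± 196. Hepatocyte markers (6 of 8 in the table) summed to 242 to 288 in PBS and 219 to 260 with IGFBP-7. Most of that sum was SERPINA1, at 252 ± 26.5 in PBS and 227 ± 24.2 with IGFBP-7, which did not pass. ALB was at 0 in 2 PBS libraries and in 1 IGFBP-7 library. Endothelial markers (7 of 8) summed to 324 to 359 in PBS and 435 to 504 with IGFBP-7, and went both ways. PECAM1 (61.5 ± 3.8 to 113 ± 10.2) and TEK (138 ± 34.5 to 224 ± 35.1) passed as higher. STAB2 went from 28.0 ± 3.36 to 15.5 ± 3.48 without overlap but did not pass, and VWF and KDR did not pass either. CDH5, which was not tested, was at 5.89 to 17.1 in PBS and at 0 in the IGFBP-7 libraries. Leukocyte and macrophage markers (6 of 8) summed to 3286 to 3370 and 1736 to 2016, mostly CD68, with PTPRC at 1.02 to 10.7 per library. Members of that list went both ways: CD68 fell from 2863 ± 53.3 to 1466 ± 135 and CD14 from 399 ± 11 to 86 ± 16.6, while CSF1R rose from 56.5 ± 8.05 to 293 ± 44.3. Epithelial markers (8 of 8) summed to 1699 to 1829 and 2019 to 2082, with CDH1 at 0 in PBS. Of these, SOX9 rose from 852 ± 44.5 to 1193 ± 65.9, KRT7 did not pass at 399.6 ± 73.4 and 469.6 ± 17.5, and MUC1 and SPP1 fell, by 0.84 ± 0.20 and 0.53 ± 0.18 on the log2 scale. The part of these marker differences in the changes of LOX and LOXL3 was not tested.

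LOX (ENSG00000113083) stood at 2393, 2439 and 2620 normalized counts in the PBS libraries and at 9674, 9625 and 8777 in the IGFBP-7 libraries. Each IGFBP-7 library was more than 3 times as high as any PBS library. The means were 2484 ± 120 and 9359 ± 504. The log2 change of LOX was 1.91 ± 0.05 (limma adjusted p = 5.35e-34), a 3.77-fold rise with a 95% interval of 3.49 to 4.06. That interval, from 1.80 to 2.02 on the log2 scale, does not cover the choice of scaling. Scaled to library totals, the log2 change was 1.77 (limma adjusted p = 2.35e-27). By size of rise LOX ranked 222 among the 11872 tested genes, of which 5.05% passed with a rise of at least 2-fold. These values rest on 2324 to 2484 sequenced fragments in PBS and 8495 to 11366 with IGFBP-7, so counting error is small: the libraries of a group varied by 4.83% and 5.39% (coefficient of variation), against 2.03% and 1.02% from counting alone. In bulk RNA, more cells making a transcript cannot be told apart from more transcript per cell.

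LOXL1 (ENSG00000129038), the member best known for its part in elastic fibre upkeep, stood at 2622, 2475 and 2363 in PBS and at 2422, 2018 and 2316 with IGFBP-7. The groups overlapped, as the first IGFBP-7 library lay above the lowest PBS library. Means were 2486 ± 130 and 2252 ± 209, and the log2 change of LOXL1 was -0.15 ± 0.07 (limma adjusted p = 0.0551), which did not pass. Its 95% interval, which is not adjusted for the number of genes, ran from 0.824-fold to 0.992-fold. This value lay at the threshold: without the second IGFBP-7 library, the lowest, it was -0.07 (adjusted p = 0.424), and scaled to library totals it was -0.29 (adjusted p = 0.00025), within adjusted p values of 0.00025 to 0.424 over all settings.

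LOXL3 (ENSG00000115318), which is needed for palate and spine development in mice, stood at 1191, 1214 and 1110 in PBS and at 1481, 1407 and 1374 with IGFBP-7. All 3 IGFBP-7 libraries lay above all 3 PBS libraries, by a narrow margin. From 1172 ± 54.8 the mean went to 1421 ± 54.9, and the log2 change of LOXL3 was 0.28 ± 0.07 (limma adjusted p = 0.00123), or 1.21-fold with an interval of 1.09 to 1.35. Scaled to library totals, LOXL3 was at 0.14 and no longer passed (adjusted p = 0.109).

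LOXL4 (ENSG00000138131), the member with the lowest level per length of the 4, stood at 426, 429 and 499.9 in PBS and at 480.5, 475 and 389.5 with IGFBP-7. The groups overlapped. The means were 452 ± 41.7 and 448 ± 51.0, and the log2 change of LOXL4 was -0.01 ± 0.11 (limma adjusted p = 0.927). The 95% interval ran from 0.846-fold to 1.16-fold. It is not adjusted for the number of genes and does not cover the choice of scaling. Scaled to library totals, LOXL4 was at -0.15 (limma adjusted p = 0.246). LOXL4 had the fewest fragments of the members, 377 to 561 per library, and the widest spread, 9.22% in PBS and 11.4% with IGFBP-7, against 4.78% and 4.68% from counting alone.

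In all, 2 of the 4 measured members passed, beside 60.6% of all tested genes, and both were higher, beside 31.3%, and the same 2 had groups that did not overlap, beside 63.5% of all tested genes. The median log2 change of the 4 was 0.13, and that of all tested genes 0.02. Scaled to library totals, 1 member was higher, LOX, and 1 lower, LOXL1, and the median was -0.0091. The plot of normalized counts by library shows the size of the LOX rise against the overlap in LOXL1 and LOXL4.

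**Figure D1:**
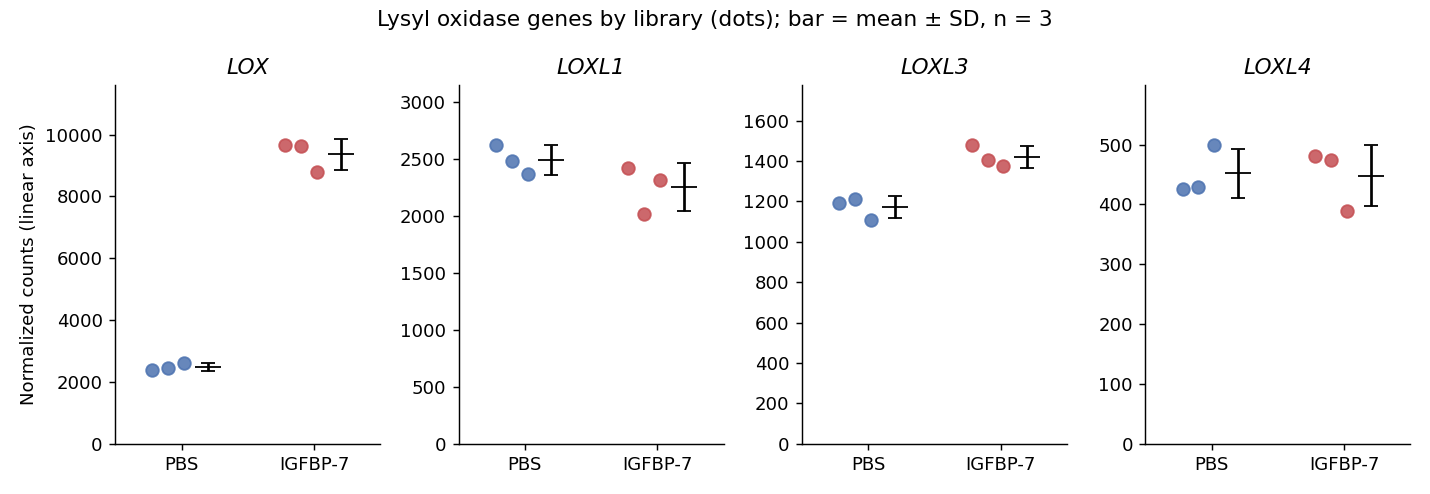
Normalized counts of LOX, LOXL1, LOXL3 and LOXL4 (linear axes from 0, a different scale per gene) in 3 PBS libraries (blue) and 3 IGFBP-7 libraries (red); dots are libraries and bars the mean ± SD. LOX goes from 2393 to 2620 in PBS to 8777 to 9674 with IGFBP-7, LOXL3 moves up without overlap, and LOXL1 and LOXL4 overlap.

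**Figure D2:**
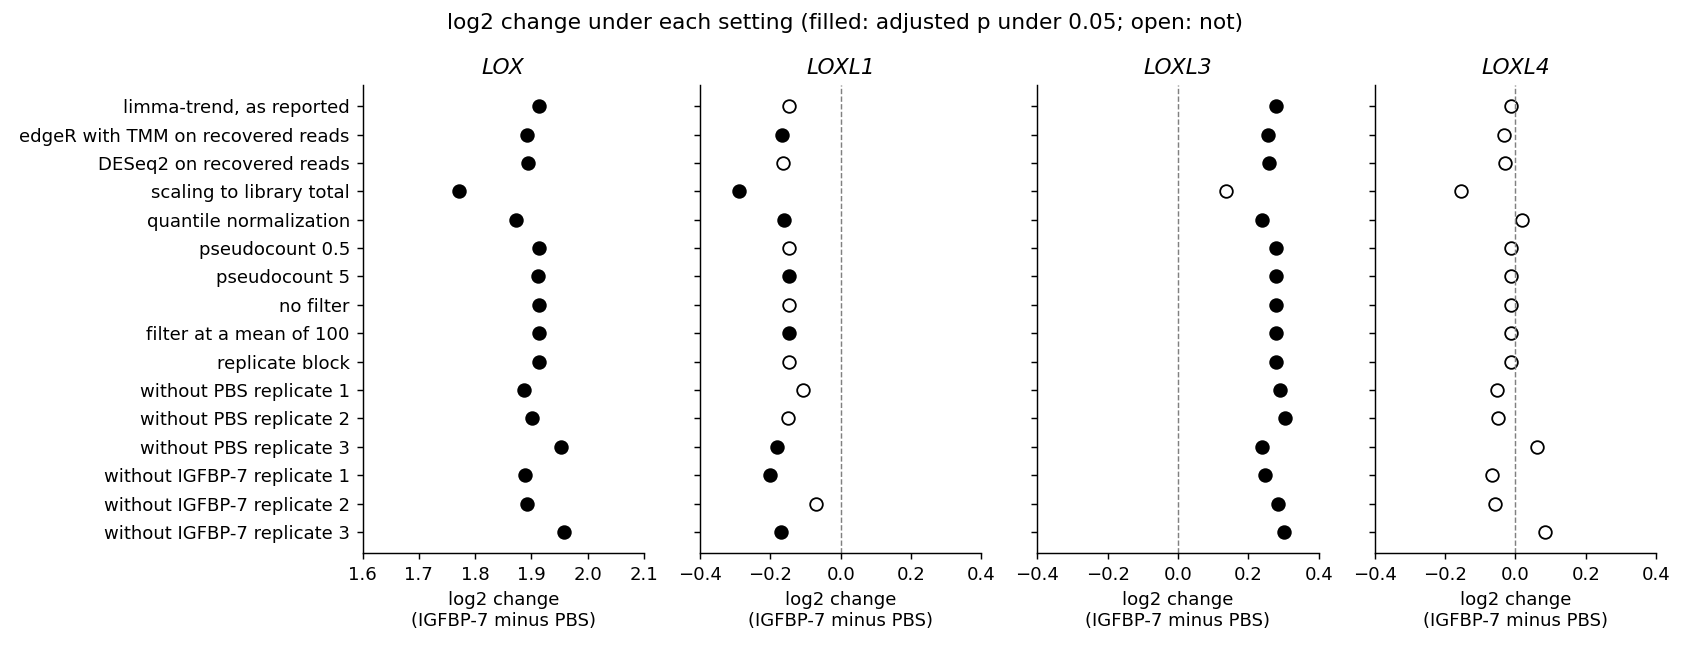
log2 change (IGFBP-7 minus PBS) of each member under 16 settings, filled where the adjusted p was under 0.05 and open where it was not; the LOX axis covers a different range from the others. LOX passed in 16 of 16 settings, LOXL3 in 15, LOXL1 in 8 and LOXL4 in 0.

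Whether the members moved by different amounts was asked with the log2 ratio of a pair of members within a library, which does not depend on how libraries are scaled. Over 6 pairs, an exact two-sided permutation test of 3 against 3 libraries cannot go below p = 0.1, or 0.12 after Benjamini-Hochberg adjustment, so no pair could pass. The log2 ratio of LOX to LOXL1 was -0.13, -0.02 and 0.15 in the PBS libraries and 2.00, 2.25 and 1.92 in the IGFBP-7 libraries, a change of 2.06 ± 0.13 (SE), or 4.17-fold (exact permutation p = 0.1). In LOX to LOXL4 the change was 1.93 ± 0.06 and in LOX to LOXL3 it was 1.63 ± 0.08, with no overlap between the groups. LOXL1 to LOXL3 changed less, by -0.42 ± 0.08, also without overlap, and LOXL3 to LOXL4 by 0.29 ± 0.14. The groups overlapped for LOXL1 to LOXL4 only, at -0.13 ± 0.18 (exact permutation p = 0.6). With 1 library left out, LOXL1 to LOXL4 ranged from -0.25 (without IGFBP-7 replicate 3) to -0.011 (without IGFBP-7 replicate 2), and LOXL3 to LOXL4 from 0.18 (without PBS replicate 3) to 0.35.

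Levels can be compared between genes only per length, for which the exonic length of each gene's protein-coding transcripts in GENCODE release 29 was used: 5181 bases for LOX, 2351 for LOXL1, 4199 for LOXL3 and 3653 for LOXL4. In PBS, LOXL1 had the highest level at 1058 ± 55.3 normalized counts per kilobase, followed by LOX at 479 ± 23.1, LOXL3 at 279 ± 13 and LOXL4 at 124 ± 11.4. No library of one gene reached the range of the next. With IGFBP-7, LOX came first at 1806 ± 97.3, then LOXL1 at 958 ± 89, LOXL3 at 338 ± 13.1 and LOXL4 at 123 ± 14, again without overlap between neighbours in the order.

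Of the summed length-scaled counts of the 4 genes, LOX made up 24.7% ± 1.57 in PBS and 56% ± 2.1 with IGFBP-7. The share of LOXL1 was 54.5% ± 1.91 and 29.7% ± 2.42. LOXL3 held 14.4% ± 0.577 and 10.5% ± 0.0524, and LOXL4 6.38% ± 0.678 and 3.8% ± 0.34. The sum itself went from 1940 ± 33.9 to 3225 ± 140 per kilobase, 1.66 times as much. The shares of LOXL1, LOXL3 and LOXL4 are thus smaller against a larger sum, while the count of LOXL3 rose slightly and those of LOXL1 and LOXL4 did not pass. LOXL2 is not in these sums.

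**Figure D3:**
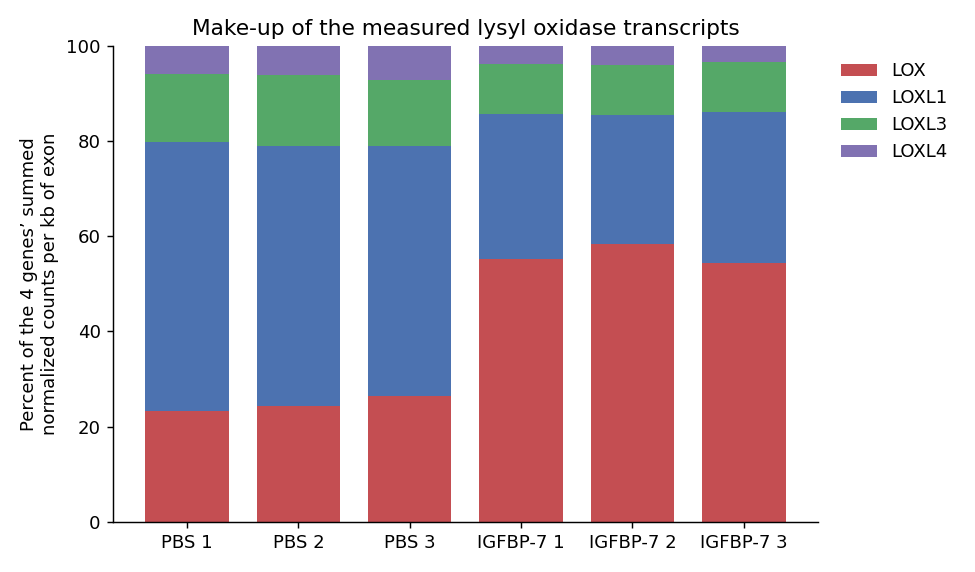
Stacked bars for each of the 6 libraries show the percent that LOX, LOXL1, LOXL3 and LOXL4 contribute to their summed normalized counts per kilobase of exon. LOX fills 23.4% to 26.5% of the PBS bars and 54.4% to 58.4% of the IGFBP-7 bars, and the shares of the other 3 genes are smaller.

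Each member overlaps a gene on the opposite strand in GENCODE release 29. Per the labels the library kit was directional, but no source used here says whether reads were counted by strand. It is therefore not known whether reads of such a pair were kept apart in these counts, and their values are uncertain. In the exons of protein-coding transcripts used for the lengths, LOX shares 138 bases (2.66% of its own) with SRFBP1, the gene of a serum response factor binding protein. SRFBP1 stood at 1024, 1024 and 1018 in PBS and at 1936, 1757 and 1814 with IGFBP-7. With a log2 change of 0.84 ± 0.07 (limma adjusted p = 1.87e-14), SRFBP1 rose 1.79-fold, less than LOX. LOXL1 shares 232 exon bases (9.87%) with the noncoding LOXL1-AS1, a gene with PBS libraries at 979, 1074 and 954 and IGFBP-7 libraries at 1049, 860 and 848. Its log2 change of -0.13 ± 0.09 did not pass (limma adjusted p = 0.195), but it passed when libraries were scaled to their totals, at -0.27 (adjusted p = 0.00643), and without IGFBP-7 replicate 1, at -0.23 (adjusted p = 0.0348). With 1 library left out it ranged from -0.23 to -0.076.

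LOXL3 shares 625 exon bases (14.9%) with HTRA2, which encodes a mitochondrial serine protease, and 216 with DOK1, which was not analysed here. HTRA2 had means of 2562 ± 120 and 3145 ± 113, and its rise of 0.30 ± 0.06 (limma adjusted p = 3.48e-05) was close to the 0.28 of LOXL3. AUP1, a gene of lipid droplets and protein degradation, is the nearest RefSeq gene at lower coordinates that does not overlap LOXL3, and it rose by 0.25 ± 0.05 (limma adjusted p = 5.07e-05). Scaled to library totals, HTRA2 still passed at 0.15 and AUP1 did not at 0.11 (adjusted p = 0.0616). LOXL4 shares 152 exon bases (4.16%) with the antisense gene AL139241.1, which was not analysed here. STOML1, next to LOXL1, was at 0.07 ± 0.10 and did not pass, and ZNF474-AS1 beside LOX and M1AP beside LOXL3 had means under 10 normalized counts and were not tested.

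COL1A1, which encodes a chain of type I collagen, a substrate of the enzymes, stood at 50703, 47543 and 50596 in PBS and at 207294, 189675 and 199813 with IGFBP-7. Its log2 change of 2.00 ± 0.04 was close to that of LOX. Within libraries, the log2 ratio of LOX to COL1A1 was -4.40, -4.28 and -4.27 in PBS and -4.42, -4.30 and -4.51 with IGFBP-7. Of the IGFBP-7 libraries, 1 lay within the PBS range and the others below it, and the change was -0.09 ± 0.07 (SE; exact two-sided permutation p = 0.2), from -0.15 to -0.04 when any 1 library was left out. The ratios of the other members to COL1A1 lay below their PBS range: the change was -2.15 ± 0.07 for LOXL1, -1.72 ± 0.07 for LOXL3 and -2.02 ± 0.13 for LOXL4. On the linear scale these are 0.225, 0.303 and 0.247 of the PBS ratio. Each had an exact permutation p of 0.1, the smallest that 3 against 3 libraries allow, and 0.133 adjusted over the 4 ratios.

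**Figure D4:**
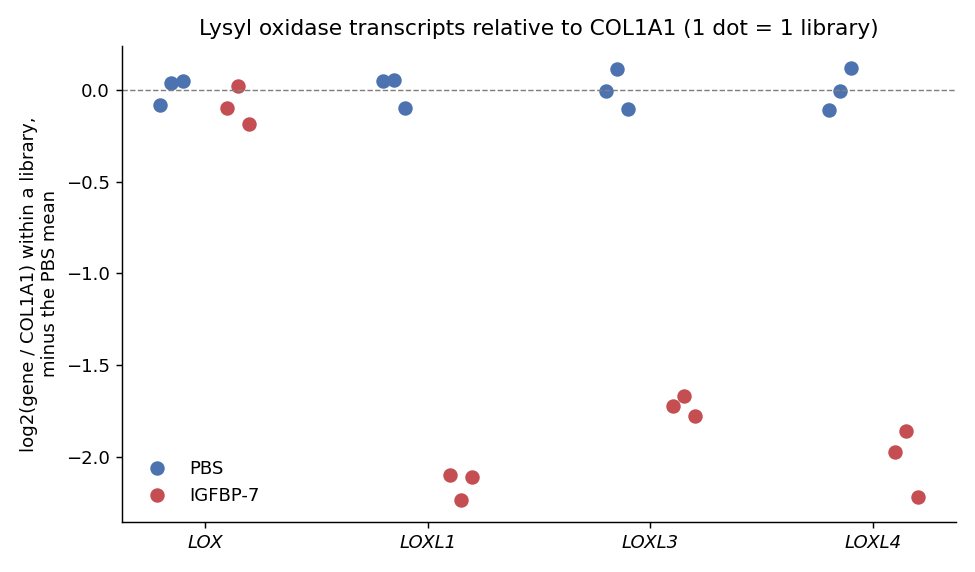
log2 ratio of each member to COL1A1 within a library, with the PBS mean of that ratio subtracted; each dot is 1 library (blue PBS, red IGFBP-7). Of the IGFBP-7 dots of LOX, 1 lies within the range of its PBS dots and 2 lie just below, and those of LOXL1, LOXL3 and LOXL4 lie lower, with mean changes of -1.72 to -2.15.

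Among the fibrillar collagen and elastin substrates, 8 of 11 tested genes rose and 0 fell, beside 31.3% and 29.2% of all tested genes; the other 3 did not pass. Their median log2 change was 1.02, beside 0.02 for all tested genes. The lists here and below were chosen with earlier results of these data known, which limits any comparison with all tested genes. Among the genes of this and the following lists that are named as rising or falling, the largest limma adjusted p was 0.0128, for ADAMTS14. COL5A1, whose product helps set fibril diameter, rose by 2.58 ± 0.04 and COL27A1 by 2.31 ± 0.06. ELN, the elastin gene, was not tested: it stood at 0, 5.89 and 0 in PBS and at 4.09, 1.69 and 10.3 with IGFBP-7, where 3 fragments in a library correspond to 2.54 to 3.20.

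Of the genes that process the proenzymes or bring the enzymes to their substrate, 8 of 10 tested rose and 2 fell, with a median of 1.35. Of all tested genes, 31.3% rose and 29.2% fell. BMP1, whose protease frees LOX from its propeptide, stood at 4754, 4878 and 4721 in PBS and at 10663, 9991 and 10089 with IGFBP-7, a log2 change of 1.10 ± 0.05 (limma adjusted p = 1.33e-25). TLL1, which encodes a related protease, fell from 899.6 ± 64.7 to 201 ± 46. FN1, the fibronectin gene, rose by 2.40 ± 0.04, FBLN5, whose product links LOXL1 to elastic fibres, by 2.01 ± 0.16, and POSTN, the periostin gene, by 2.33 ± 0.60 from only 4.42 ± 1.41 normalized counts. ADAMTS14, an aminoprocollagen protease gene, fell by 0.76 ± 0.27.

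Collagen lysines are hydroxylated and glycosylated before secretion, which decides the kind of cross-link that lysyl oxidases can start. Here 7 of 8 tested genes rose and 1 fell, beside 31.3% and 29.2% of all tested genes, with a median of 0.53. PLOD2, the telopeptide lysyl hydroxylase gene, rose by 0.99 ± 0.04, PPIB, a prolyl isomerase gene, by 0.63 ± 0.04, and P3H4, a partner of lysyl hydroxylation, by 0.58 ± 0.06. COLGALT2, which encodes a collagen galactosyltransferase, fell from 93.5 ± 15.3 to 54.2 ± 11.2. PLOD1 and PLOD3 were not analysed here.

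Lysyl oxidases take up copper in the secretory pathway. Of 8 tested copper genes 4 rose and 0 fell, so 4 of 8 passed beside 60.6% of all tested genes, and the median over the 8 was 0.19. ATP7A, the pump that loads copper into that pathway, rose by 0.44 ± 0.09 (limma adjusted p = 1.92e-05), with means of 765 ± 63.8 and 1034 ± 20.0. The metallothionein genes MT1X and MT2A rose by 1.42 ± 0.10 and 0.42 ± 0.05; metallothioneins are close paralogs, so these values are uncertain. Scaled to library totals, 3 copper genes were higher and 1 lower, and the median was 0.05.

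In the elastic fibre scaffold 10 genes were tested, of which 7 rose and 1 fell, beside 31.3% and 29.2% of all tested genes. The median was 0.52. LTBP2, a microfibril-binding protein gene, rose from 260.3 ± 46.7 to 2065 ± 144, MFAP4 by 2.33 ± 0.17 and LTBP4 by 0.73 ± 0.05, and the fibrillin gene FBN2 fell by 0.51 ± 0.05. Of 6 tested genes of other cross-linking enzymes and copper amine oxidases, 1 rose and 1 fell, so 2 of 6 passed beside 60.6% of all tested genes. TGM2, tissue transglutaminase, fell from 2668 ± 45.1 to 1364 ± 71.2, and PXDN, which makes the sulfilimine cross-links of type IV collagen, rose from 23975 ± 1225 to 37401 ± 2342. The median over these 6 was 0.12 and became -0.03 when libraries were scaled to their totals, with 1 gene higher and 2 lower.

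Genes listed as regulators of lysyl oxidase genes, inhibitors included, moved both ways, with a median of 0.64. Of 12 tested, 9 were higher and 3 lower, beside 31.3% and 29.2% of all tested genes. TGFB1, which encodes TGF-beta, an inducer of LOX in fibroblasts, rose by 2.01 ± 0.05. SMAD7, a feedback inhibitor of that pathway, rose from 400.5 ± 23.5 to 4005 ± 261, and SNAI1, the Snail repressor gene, by 3.93 ± 0.10. SMAD3, a transducer of TGF-beta, fell by 1.17 ± 0.05, and EPAS1, a hypoxia-inducible factor gene, fell from 17431 ± 551 to 7566 ± 507. HIF1A was not analysed here. Scaled to library totals, 7 were higher and 3 lower.

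**Figure D5:**
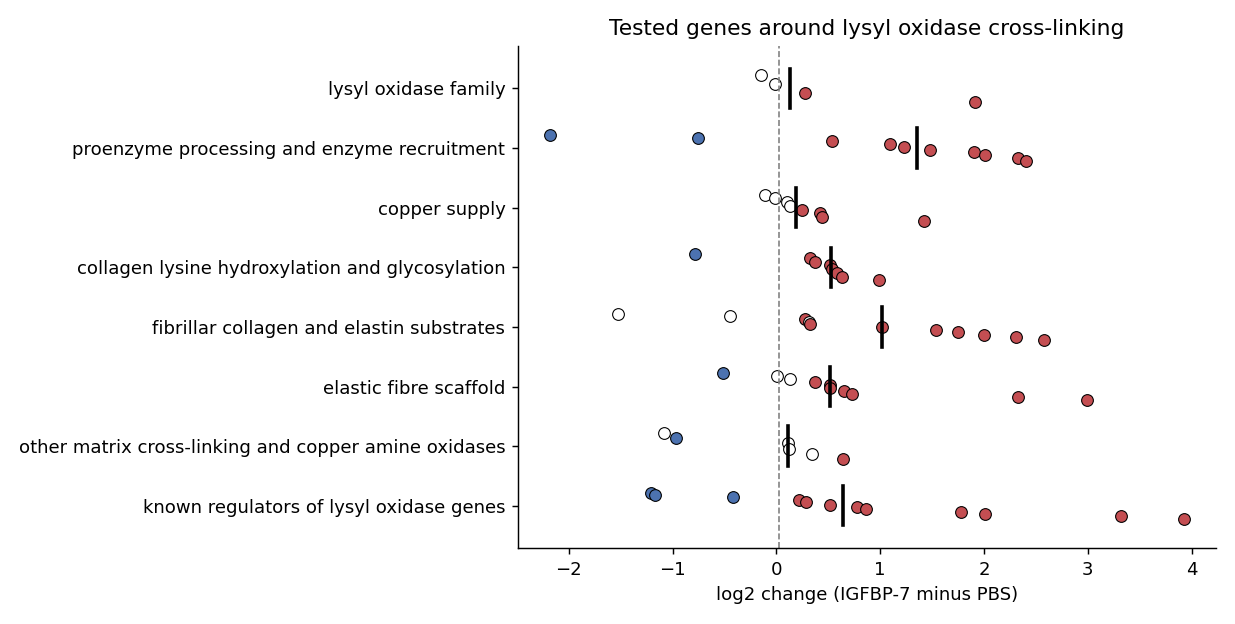
log2 change (IGFBP-7 minus PBS) of each tested gene of the family and of 7 lists around it; red dots rose, blue dots fell and open dots did not pass, black bars are list medians and the dashed line is the median of all tested genes. The largest list median is that of proenzyme processing and enzyme recruitment at 1.35, and within the family LOX stands apart to the right.

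The genes whose course over the 6 libraries came closest to a member were found among 7907 protein-coding genes with a mean of at least 100, by the root mean square (RMS) difference of log2 values centred on each gene's PBS mean. Nearest to LOX were SPOCK1, a testican proteoglycan gene (RMS 0.0492, log2 change 1.85 ± 0.04), PODXL, the podocalyxin gene (RMS 0.0513, 1.91 ± 0.04), and AMIGO2, an adhesion protein gene (RMS 0.0579, 1.92 ± 0.05). Nearest to LOXL1 were ATP6V1FNB, BCKDK and CHCHD7 (RMS 0.0200 to 0.0320), of which BCKDK passed with a log2 change of -0.16 ± 0.06 and the other two did not. BCKDK no longer passed without PBS replicate 1 or IGFBP-7 replicate 2. Nearest to LOXL3 were C1orf109, ZDHHC9 and FTSJ1 (RMS 0.0229 to 0.0266), with changes of 0.26 to 0.29; scaled to library totals, C1orf109 and ZDHHC9 lost their calls, as LOXL3 did. Nearest to LOXL4 were BPHL, HAS3 and THAP10 (RMS 0.0434 to 0.0462), none of which passed. With 2 groups of libraries this likeness reflects mostly the size of the change.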

How the data were processed

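The deposited table gives a signal on a linear scale: normalized counts, which the authors obtained by dividing each library's reads by 1 factor, as the values show. The submitters' processing notes name DESeq2, featureCounts, STAR and Subread without a role. No source used here gives their versions, the genome build, the annotation or the strand setting. Per the labels' protocols, poly(A) RNA went into a directional library kit.

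Within each library the values were whole multiples of 1 step (100% within 0.01 of a step), which gave back the read counts; 2 reads were taken as 1 fragment. Recovered reads were 41345077, 43537923 and 40599380 in PBS and 47196478, 55479940 and 45242993 with IGFBP-7, in replicate order. Intervals from counts and the floor of 3 fragments cover counting error only. Chi-square per degree of freedom between libraries of a group was 5.10 to 6.93, so all 6 were counted. No label states that libraries came from separate cultures, so p-values reflect only how these libraries vary, and that variation may be technical.

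The test was limma-trend (limma 3.58.1, R 4.3.3) on log2(normalized count + 1), two-sided, for genes with a mean of at least 10, Benjamini-Hochberg adjusted. It was tested on simulated data with changes larger than those of LOXL1 and LOXL3, so the simulation does not cover changes of their size. The log2 scale used understates changes of low genes. Alternatives were edgeR 4.0.16 and DESeq2 1.42.0 on recovered reads (edgeR called 3541 genes higher and 3562 lower), other scalings, pseudocounts of 0.5 and 5, other filters, a replicate block and leaving out each library. Recovered reads count each fragment as 2, which the count models of edgeR and DESeq2 do not allow for, so their calls near the threshold are uncertain. Ratios were tested by exact permutation. The members and gene lists were chosen with earlier results of these data known. From each list, at most 3 rising and 2 falling genes of largest change were named, plus PLOD2, BMP1, ATP7A, COL1A1, ELN, TGFB1, HIF1A and SNAI1, genes beside a member, and the 3 genes most like each member. Of the 87 pathway genes 70 were in the table and 65 were tested. Promoters come from RefSeq (GRCh38.p14), with 4 of 4 members matched by symbol; gene models come from GENCODE release 29, matched by Ensembl identifier. Per-sample columns left unused numbered 0.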

Additional observations from a re-analysis of the deposited data

How the results depend on the processing

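LOX kept its direction and its call under every setting run, with log2 changes of 1.77 to 1.96. LOXL1 passed as lower with edgeR on recovered reads (-0.17, adjusted p = 0.0285), scaling to the library total (-0.29), quantile normalization (-0.16), a pseudocount of 5 (-0.15) and a filter at a mean of 100 (-0.15). Under each of these 5 the count of lower members was 1 in place of 0. The reads given to edgeR count each fragment as 2, so its call of LOXL1 is uncertain. With 1 library left out, LOXL1 lay between -0.20 and -0.069, passing without PBS replicate 3, IGFBP-7 replicate 1 or IGFBP-7 replicate 3, and the count of lower members was 0 to 1. LOXL3 lost its call with scaling to the library total (0.14), which left 1 member higher; with 1 library left out it was 0.24 to 0.30. LOXL4, which never passed, was at 0.019 with quantile normalization and from -0.067 to 0.084 with 1 library left out. The cause of these differences was not tested. Scaling to the library total gave 2435 genes higher, and leaving out 1 library 3403 to 3605.

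Among the other named genes, STOML1 was at -0.075 with scaling to the library total and THAP10 at 0.0076 with quantile normalization. With 1 library left out, STOML1 ranged from -0.041 to 0.18, BPHL from -0.090 to 0.029, HAS3 from -0.085 to 0.034 and THAP10 from -0.048 to 0.060, none of them passing. Of 44 such genes, 34 kept direction and call under the alternatives run.

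Same-numbered libraries did not deviate together (correlations of -0.05, 0.01 and -0.05). No effect of pairing by number was visible, but this cannot show whether they were paired by culture or day. With the replicate block, 3715 genes were higher and 3462 lower, LOX was at 1.91, and 2 members passed. Among the fibrillar collagen genes 1 passed as lower with the block, and likewise 1 without IGFBP-7 replicate 1 or without IGFBP-7 replicate 2, in place of 0.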
